A study of Mus musculus with 3 samples.

Results

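Fc receptors are the surface proteins through which leukocytes bind the constant part of antibodies, and 9 of their genes are described here in bone marrow. The members were taken by symbol from a list of 9 (Fcgr1, Fcgr2b, Fcgr3, Fcgr4, Fcer1a, Fcer1g, Fcer2a, Ms4a2 and Fcgrt), and all 9 were found, each with 1 entry, among 23282 entries. The mice were wild type C57BL/6 males, an inbred strain, aged 6 weeks. They received sterile water by oral gavage for 28 days, and marrow cells were harvested on day 29 and freed of red blood cells by lysis. This vehicle group had 3 libraries, and it is the control for Asari Radix et Rhizoma, a herbal root preparation. The arm that received the herb was not analysed here, and every comparison is between genes or between the 3 vehicle libraries. Whether each library is a different mouse is not stated in the labels, so their spread may be technical.

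Most Fc receptors are built from a chain that binds the antibody and a separate chain that signals. The common gamma chain, encoded by Fcer1g, carries an activating tyrosine motif (ITAM) and is needed at the surface by the activating IgG receptors Fcgr1, Fcgr3 and Fcgr4 and by the high-affinity IgE receptor, whose other chains are Fcer1a and Ms4a2. Fcgr2b carries an inhibitory motif (ITIM) in its own tail and recruits the lipid phosphatase encoded by Inpp5d, so that the balance of activating and inhibitory IgG receptors sets how strongly a myeloid cell answers an immune complex. Fcer2a (CD23) is a lectin-type IgE receptor best known on mature B cells, and Fcgrt is the neonatal receptor, which rescues IgG and albumin from breakdown inside cells together with B2m.

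The libraries held 8104828 to 9168435 gene-assigned reads, and levels are given as reads per 1000000 of these (CPM). The library kit primes at the poly(A) tail and reads about 1 fragment per transcript, so levels of different genes are set side by side on the CPM scale without a length correction. The floor of 3 reads that a count of 0 allows lay at 0.327 to 0.370 CPM, and both floor and intervals cover counting error only. Neutrophil markers were present at high levels in the 3 libraries (S100a9 at 37811 ± 3442 CPM, SD, n = 3). Erythroid markers were also high after the lysis of red blood cells (Hba-a1 at 63788 ± 14030 CPM, SD, n = 3). Markers of monocytes and macrophages, B cells and eosinophils were lower, with mean sums of 1300, 712 and 1335 CPM. The listed neutrophil markers had a mean sum of 82956 CPM. In the GRCm38 annotation 5 members lie on chromosome 1, with Fcgr2b (170958617 to 170976547), Fcgr4 (171018920 to 171029761), Fcgr3 (171051174 to 171064935) and Fcer1g (171229572 to 171234365) near each other and Fcer1a (173221284 to 173227214) apart. Fcgr1 lies on chromosome 3 (96282909 to 96293969), Fcgrt on chromosome 7 (45092990 to 45103851), Fcer2a on chromosome 8 (3681737 to 3694175) and Ms4a2 on chromosome 19 (11615523 to 11623719). All are protein-coding, and no other entry of the files overlaps them, although antisense genes lie over Fcgr2b (Gm38204) and Fcgrt (Gm45669) and the strand setting of the counting is not given. The last 400 bases of the annotated coding transcripts, where this kind of library reads, shared no 50-base word with transcripts of other genes for 8 members, Fcgr2b, Fcgr3 and Fcgr4 among them. Fcer2a shared 39 of 742 such words (5.26%) with other genes.

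The 250 bases before the transcription start were read from RefSeq on GRCm38.p6 for the 9 members, and 7 are shown. These are the gamma chain and IgG receptor genes, lowest in replicate 2, and 2 other chains of the high-affinity IgE receptor, which were not. The genes shown were chosen by this pattern, so their letters give no evidence for it. Fcer2a was also lowest in replicate 2 and is not shown. Each window shown is printed 5′ to 3′ along the gene's own strand, and capitals mark 2 kinds of motif searched on both strands. These are GAGGAA (the PU box, the core bound by the myeloid factor PU.1) and the GATA motif (AGATAA or TGATAA, or either of these with G as its last base, bound by GATA factors). The windows are chr1:171234350-171234599 for Fcer1g, chr1:171059404-171059653 for Fcgr3, chr1:171018676-171018925 for Fcgr4, chr3:96293970-96294219 for Fcgr1, chr1:170976072-170976321 for Fcgr2b, chr1:173227230-173227479 for Fcer1a and chr19:11623720-11623969 for Ms4a2, all on the minus strand except Fcgr4 on the plus strand.
Fcer1g: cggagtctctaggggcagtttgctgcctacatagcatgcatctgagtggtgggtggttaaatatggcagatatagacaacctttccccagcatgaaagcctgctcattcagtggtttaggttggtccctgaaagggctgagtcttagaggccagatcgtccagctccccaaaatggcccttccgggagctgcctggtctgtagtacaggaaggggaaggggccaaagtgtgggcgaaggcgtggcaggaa
Fcgr3: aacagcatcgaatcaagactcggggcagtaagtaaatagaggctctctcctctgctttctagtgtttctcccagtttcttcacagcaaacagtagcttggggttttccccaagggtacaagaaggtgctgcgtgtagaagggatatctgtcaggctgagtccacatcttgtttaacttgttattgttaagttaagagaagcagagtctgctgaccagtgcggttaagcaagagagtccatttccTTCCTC
Fcgr4: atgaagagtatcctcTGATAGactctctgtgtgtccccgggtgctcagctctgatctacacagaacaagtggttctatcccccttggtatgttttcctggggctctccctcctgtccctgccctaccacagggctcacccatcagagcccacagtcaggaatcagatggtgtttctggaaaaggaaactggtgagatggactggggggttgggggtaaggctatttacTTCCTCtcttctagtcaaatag
Fcgr1: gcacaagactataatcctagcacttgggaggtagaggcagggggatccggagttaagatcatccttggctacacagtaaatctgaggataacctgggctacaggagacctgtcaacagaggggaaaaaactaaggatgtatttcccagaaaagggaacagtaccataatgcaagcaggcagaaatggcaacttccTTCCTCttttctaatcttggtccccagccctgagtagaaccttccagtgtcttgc
Fcgr2b: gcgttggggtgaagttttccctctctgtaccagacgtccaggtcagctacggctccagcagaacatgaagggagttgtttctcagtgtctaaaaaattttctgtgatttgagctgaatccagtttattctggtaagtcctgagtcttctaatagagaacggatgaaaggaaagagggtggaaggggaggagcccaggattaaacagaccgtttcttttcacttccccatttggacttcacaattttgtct
Fcer1a: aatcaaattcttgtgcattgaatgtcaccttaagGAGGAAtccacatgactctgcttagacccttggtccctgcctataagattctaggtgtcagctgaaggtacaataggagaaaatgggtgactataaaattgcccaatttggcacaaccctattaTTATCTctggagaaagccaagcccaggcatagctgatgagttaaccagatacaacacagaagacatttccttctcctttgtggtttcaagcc
Ms4a2: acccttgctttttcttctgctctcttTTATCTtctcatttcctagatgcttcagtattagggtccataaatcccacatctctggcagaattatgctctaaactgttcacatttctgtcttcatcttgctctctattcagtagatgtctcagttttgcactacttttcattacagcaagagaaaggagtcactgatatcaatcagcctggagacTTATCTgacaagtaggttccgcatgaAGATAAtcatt
The 3 activating IgG receptor genes each held a PU box in reverse orientation close to the start. It began 6 bases before the start in the Fcgr3 window shown, 22 in Fcgr4 and 55 in Fcgr1. In a second RefSeq window of Fcgr3, not shown, the same box began 15 bases before the start. All distances count from RefSeq starts. The windows of Fcgr3 and Fcgr2b lie inside the gene spans given above, so the annotations differ in where these genes start. Ms4a2 held 3 GATA motifs. Fcer1a and Fcgr4 held 1 each, as did 2 of the 3 windows of Fcer2a, which are not shown. Fcer1a also held a PU box that lay farther away, beginning 216 bases before the start. None of these letters occurred in the windows of Fcer1g and Fcgr2b. For comparison, the PU box occurred in 23.3% of 32851 RefSeq promoter windows of the same length and a GATA motif in 26.5%. A match is a description of the letters only, and it shows no binding.

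Fcer1g and Fcgr3 carried most of the Fc receptor reads, and the inhibitory receptor and the high-affinity IgE receptor chains were low. Fcer1g stood at 248 ± 57.4 CPM (SD, n = 3), rank 380 of 11833 genes with at least 30 reads. Fcgr3, the low-affinity activating receptor, stood at 179 ± 21.8 CPM and rank 620. Together they made up 84.6%, 83.1% and 84.7% of the reads of the 9 genes in replicates 1, 2 and 3. Fcgr4, the activating receptor of neutrophils and monocytes, had 27.3 ± 4.39 CPM, followed by Fcer2a at 14.7 ± 3.81, Fcgrt at 12.0 ± 1.77, Fcgr2b at 11.1 ± 2.69 and Ms4a2 at 8.58 ± 1.89 CPM. The high-affinity IgG receptor gene Fcgr1, a marker of monocytes and macrophages, had 5.17 ± 2.01 CPM, and Fcer1a, the IgE-binding chain, had 1.28 ± 0.606 CPM. The median tested gene had 16.8 CPM.

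**Figure D1:**
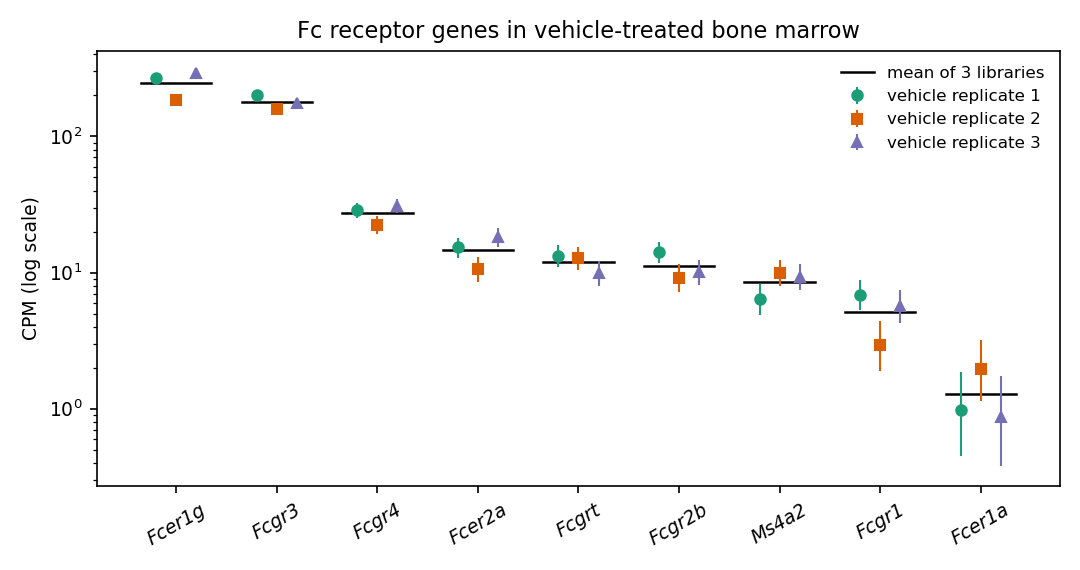
CPM of the 9 Fc receptor genes on a log axis in the 3 vehicle libraries, with points for each library, vertical lines for exact 95% Clopper-Pearson intervals and horizontal bars for the mean. Fcer1g and Fcgr3 lie between 159 and 293 CPM, and no library of another member reaches above 30.8 CPM.

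In the order of these levels the ranges of neighbours did not overlap at 3 steps, from Fcgr3 to Fcgr4, from Fcgr4 to Fcer2a and from Fcgr1 to Fcer1a. Fcer1g was above Fcgr3 within each library, but their ranges overlapped. Among Fcer2a, Fcgrt, Fcgr2b, Ms4a2 and Fcgr1, the ranges of neighbours overlapped, and no step between them was larger than its SD. The last of these steps, from Ms4a2 to Fcgr1, was 0.67 ± 0.78 on the log2(CPM + 1) scale (SD, n = 3), and it was in the same direction in 2 of 3 libraries.

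The gamma chain and all 4 IgG receptor genes were lowest in replicate 2. Fcer1g had 268, 184 and 293 CPM in replicates 1, 2 and 3, from 2461, 1488 and 2676 reads (adjusted p = 8.07e-48, exact binomial test). Here and for single genes below, 1 library at a time was compared with the remaining 2 by a two-sided test on reads, with Benjamini-Hochberg adjustment over all tested genes. The test sets the spread between libraries against counting noise only, and its p becomes small for any well-covered gene that varies. Replicates 1 and 3 stood close together for the gamma chain, and replicate 2 stood apart, 1.60-fold below the highest library.

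The ranges of the activating receptors were narrower than that of the gamma chain, with the exception of Fcgr1. Fcgr3 had 202, 159 and 176 CPM (adjusted p = 2.42e-08, exact binomial test), a 1.27-fold range. Fcgr4 had 28.7, 22.3 and 30.8 CPM (adjusted p = 0.00549, exact binomial test), a 1.38-fold range. Fcgr1 had 6.87, 2.96 and 5.69 CPM from 63, 24 and 52 reads (adjusted p = 0.00355, exact binomial test), a 2.32-fold range. For each of the 3 genes replicate 2 was the lowest library, while the highest was replicate 1 for Fcgr3 and Fcgr1 and replicate 3 for Fcgr4. Without replicate 2 neither Fcgr1 nor Fcgr4 differed past counting noise (adjusted p = 0.483 and 0.573, exact binomial test), and Fcgr3 still did.

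The inhibitory receptor Fcgr2b had 130, 74 and 92 reads, or 14.2, 9.13 and 10.1 CPM (adjusted p = 0.00845, exact binomial test). Replicate 1 was highest and the other libraries lay close together. This call did not hold with other library scalings: the adjusted p was 0.0829 with trimmed-mean (TMM) scaling, 0.0829 with the authors' scaling, 0.0826 with median-of-ratios scaling and 0.0614 with totals that leave out the 20 most abundant genes. It did not hold without replicate 1 either (adjusted p = 0.675, exact binomial test). On library totals, genes of replicate 1 had a median deviation of 0.10 log2 units from their own mean, and of 0.01 with TMM scaling.

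Of the 9 members, 7 differed between libraries (77.8%), against 56.5% of all tested genes. The members called and lowest in replicate 2 were 6 (66.7%), against 21.4% of all tested genes. A call can come from any of the 3 libraries, so a gene in this count need not be called because of replicate 2. These 6 were lowest in replicate 2 under each of the 4 other scalings. Fcgr2b, 1 of the 6, was not called under any of these scalings (adjusted p = 0.0614 to 0.0829, exact binomial test). Without replicate 2 the members called were 3, namely Fcer1g, Fcgr3 and Fcgr2b, of 8 with enough reads (37.5%), against 39.0% of all genes tested in that way. Without replicate 1 there were 5 of 8 (62.5%), against 34.8% of all. All 9 members had at least 30 reads over the 3 libraries, so none was lost to the read minimum. The median coefficient of variation (CV) of the members was 23.1%, against 17.1% over all tested genes.

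**Figure D2:**
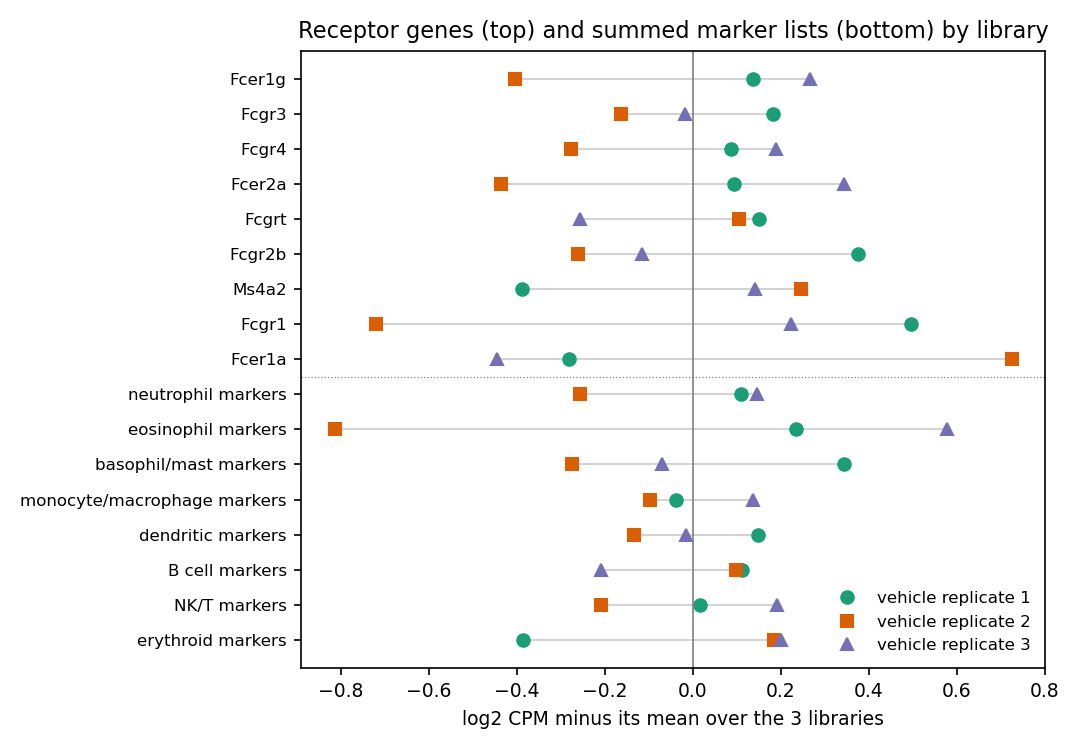
Each point is the log2 CPM of 1 library minus the mean of the 3 libraries, for the 9 receptor genes above the dotted line and for summed marker lists below it. Replicate 2 lies farthest left for Fcer1g, the 4 IgG receptor genes and Fcer2a, and farthest right for Fcer1a and Ms4a2.

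Marker levels moved between the same libraries. The counts of markers called and lowest in replicate 2 are to be read against 21.4% of all tested genes. The 10 neutrophil markers summed to 88807, 68975 and 91087 CPM in replicates 1, 2 and 3, and 10 of 10 were called and lowest in replicate 2. For Csf3r, replicates 2 and 3 were nearly tied, at 18.1, 10.4 and 10.4 CPM in replicates 1, 2 and 3. Eosinophil markers summed to 1454, 704 and 1846 CPM, with 3 of 6 called and lowest in replicate 2, namely the granule genes Epx, Prg3 and Prg2, which made up most of the sum (1219, 586 and 1560 CPM). The eosinophil receptor genes Ccr3 (15.7, 18.6 and 17.5 CPM) and Il5ra (5.24, 8.39 and 7.33 CPM) had their highest value in replicate 2, without passing the test, and Siglecf was lowest in replicate 3. Monocyte and macrophage markers summed to 1263, 1212 and 1426 CPM, with 3 of 10 called and lowest in replicate 2. With TMM scaling replicate 1 was the lowest for this sum, at 1183 CPM against 1235 and 1494. B cell markers summed to 765, 758 and 613 CPM, with 3 of 10 called and lowest in replicate 2. NK and T cell markers summed to 83.8, 71.7 and 94.6 CPM, but 1 of 8, Nkg7 (51.5, 36.2 and 55.3 CPM), was lowest in replicate 2. No marker of these lists was at 0 in all 3 libraries. Erythroid markers ran another way, at 66540, 98801 and 99969 CPM, with 6 of 6 lowest in replicate 1. The part of these markers in the receptor values was not tested, and in bulk samples fewer cells of a type and less receptor RNA per cell cannot be told apart.

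Activating IgG receptor reads outnumbered those of the inhibitory receptor in the 3 libraries, and most of them were reads of Fcgr3. All are reads of bulk marrow, and which cell types they came from was not tested. The ratios are therefore not those within a myeloid cell. Summed Fcgr1, Fcgr3 and Fcgr4 stood at 238, 184 and 213 CPM, which was 16.8, 20.2 and 21.1 times the level of Fcgr2b. The log2 ratio was 4.27 ± 0.18 (SD, n = 3), and being a score over the members it has no test. Fcgr3 supplied 85.1%, 86.3% and 82.9% of the activating reads in replicates 1, 2 and 3. Without Fcgr3 the log2 ratio was 1.55, and with the mean of the 3 log2(CPM + 1) values in place of the sum it was 1.38.

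Single activating receptors stood on either side of the inhibitory receptor. Fcgr3 exceeded Fcgr2b 14.3-fold, 17.4-fold and 17.5-fold in replicates 1, 2 and 3, a log2 ratio of 4.03 ± 0.17 (SD, n = 3). Fcgr4 exceeded it 2.02-fold, 2.45-fold and 3.05-fold, a log2 ratio of 1.31 ± 0.30. Fcgr1 was the exception and lay below Fcgr2b in 3 of 3 libraries, with a log2 ratio of -1.16 ± 0.41. Each ratio kept its sign in 3 of 3 libraries. An exact sign-flip permutation test, two-sided, gave p = 0.25 for each, the lowest value possible with 3 libraries. Within-library ratios do not depend on the library scaling.

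The ratios of activating to inhibitory receptors did not differ between libraries past counting noise, and the 74 to 130 reads of Fcgr2b limit the precision. Each library was set against the other 2 with Fisher's exact test, adjusted by Benjamini-Hochberg over 6 pairs of genes. The adjusted p was 0.440 for Fcgr1 over Fcgr2b, 0.440 for Fcgr3 over Fcgr2b and 0.197 for Fcgr4 over Fcgr2b. Without replicate 2 the last pair differed between replicates 1 and 3 (adjusted p = 0.0326, Fisher's exact test).

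**Figure D3:**
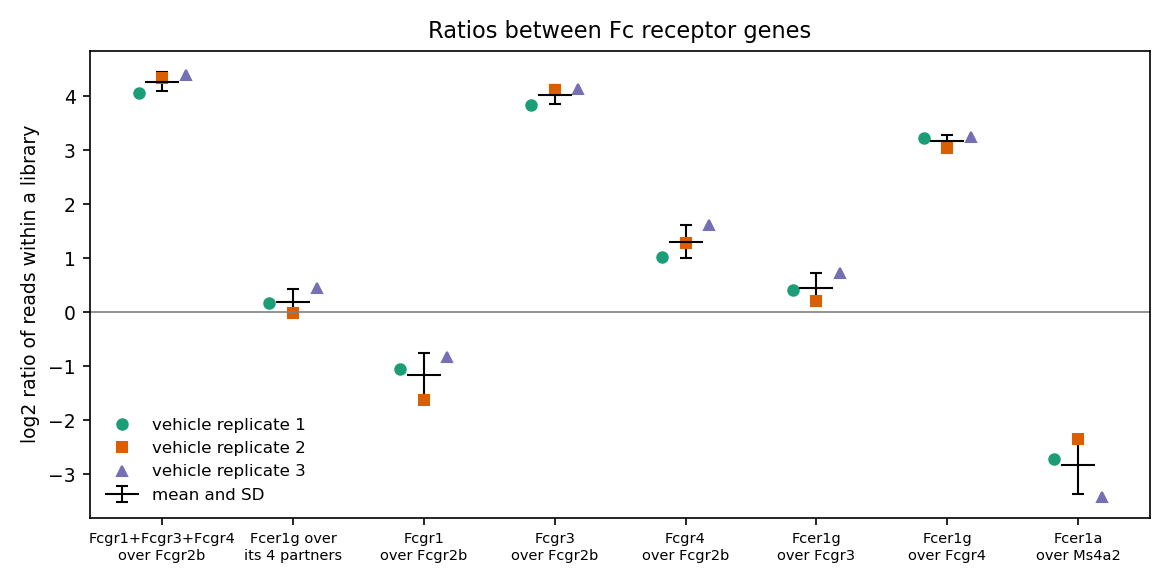
Log2 ratios of reads within each vehicle library, with points for libraries and black marks for the mean and SD of 3 libraries. The summed activating receptors lie 4.07 to 4.40 above Fcgr2b, Fcgr1 lies below Fcgr2b, and Fcer1g lies near the sum of its 4 partners.

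The gamma chain was about as abundant as the 4 Fc receptor chains that pair with it, as a sum. Fcer1g stood at 1.12, 0.985 and 1.37 times the summed level of Fcgr1, Fcgr3, Fcgr4 and Fcer1a in replicates 1, 2 and 3, a log2 ratio of 0.20 ± 0.24 (SD, n = 3). The spread covers 0, and replicate 2 lay slightly below it. Without Fcgr3 in the sum the log2 ratio was 2.87. Other receptors listed as partners of the gamma chain, which are not in this sum, added up to 337, 219 and 260 CPM. Most of that was 1 gene, Cd300lf, at 212, 124 and 156 CPM, and its pairing with the gamma chain was not tested. Against Fcgr3 alone, Fcer1g was 1.33-fold, 1.15-fold and 1.66-fold higher, and this ratio differed between libraries (adjusted p = 2.56e-11, Fisher's exact test over 6 pairs). It still differed when any 1 library was left out, with adjusted p-values from 1.13e-12 to 0.0271. Against Fcgr4 the gamma chain was 9.36-fold, 8.22-fold and 9.52-fold higher (adjusted p = 0.486, Fisher's exact test), with a log2 ratio of 3.17 ± 0.12.

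The high-affinity IgE receptor of mast cells and basophils is made of Fcer1a, Ms4a2 and the gamma chain, and its own 2 chains did not share the low values in replicate 2. Fcer1a had 9, 16 and 8 reads, or 0.982, 1.97 and 0.876 CPM, with exact 95% Clopper-Pearson intervals of 0.449 to 1.86, 1.13 to 3.21 and 0.378 to 1.73 CPM. The intervals overlap, and a difference was not detectable at this depth (adjusted p = 0.159, exact binomial test). Ms4a2, the beta chain that amplifies the signal, had 6.44, 9.99 and 9.30 CPM (adjusted p = 0.0418, exact binomial test). Replicate 1 was its lowest library, and the call was lost without replicate 1 (adjusted p = 0.806, exact binomial test) and without replicate 2 (0.0707). Fcer1a lay below Ms4a2 in 3 of 3 libraries, with a log2 ratio of -2.82 ± 0.54 (SD, n = 3), and that ratio did not differ between libraries past counting noise (adjusted p = 0.522, Fisher's exact test).

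Basophil and mast cell markers did not share 1 order of libraries. The 9 listed genes summed to 624, 407 and 469 CPM in replicates 1, 2 and 3. Of 7 tested genes 4 were called and lowest in replicate 2, against 21.4% of all tested genes. Most of the sum was Hdc, the histidine decarboxylase gene that neutrophils also express, at 427, 273 and 302 CPM. The basophil protease gene Mcpt8 had 63.3, 38.1 and 48.9 CPM, and Prss34, which encodes another basophil protease, had 64.9, 43.2 and 61.6 CPM. Both were lowest in replicate 2, where Ms4a2 and Fcer1a were highest. Cpa3 of the same list was also lowest there, at 30.2, 15.3 and 23.9 CPM (adjusted p = 7.63e-08, exact binomial test). Kit, which encodes a growth factor receptor, had the library order of Ms4a2, at 17.2, 22.6 and 20.1 CPM, without passing the test. Gata2 was lowest in replicate 3. No difference between these orders was tested. Of the mast cell protease genes, Tpsb2 had 1 read in all and Cma1 had 4.

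Fcer2a had its libraries in the order of the gamma chain. Its levels were 15.3 CPM in replicate 1, 10.6 in replicate 2 and 18.2 in replicate 3 (adjusted p = 0.00118, exact binomial test). Replicate 2 was lowest, and without it the gene did not differ (adjusted p = 0.236, exact binomial test). Mature B cell markers summed to 200, 202 and 170 CPM in the same libraries, with the B cell surface gene Ms4a1 at 97.5, 114 and 75.7 CPM. The sum and Ms4a1 were lowest in replicate 3, the highest library for Fcer2a. Cr2, the complement receptor gene of mature B cells (23.9, 17.0 and 22.2 CPM), and Cd22 (36.0, 29.2 and 31.7 CPM) were lowest in replicate 2 like Fcer2a, and Cr2 passed the test. The part of these markers in the Fcer2a values was not tested. The neonatal receptor gene Fcgrt had 13.2, 12.8 and 9.96 CPM (adjusted p = 0.147, exact binomial test), lowest in replicate 3. Its light chain B2m was far more abundant, at 2444 ± 127 CPM (SD, n = 3), and varied 1.11-fold.

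Around the receptors, 7 lists of related genes held 54 tested genes, of which 42 differed between libraries (77.8%) and 25 were called and lowest in replicate 2 (46.3%). Over all tested genes the shares were 56.5% and 21.4%. With the 4 other scalings 32 to 34 of these genes were called (59.3% to 63.0%), against 51.8% to 52.2% of all genes. Their median CV was 15.7%, against 17.1% over all tested genes. Without replicate 1 or without replicate 2 26 of 51 were called (51.0%), against 34.8% and 39.0% of all genes.

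Among signalling adaptors other than the gamma chain, 4 of 5 differed and 2 were called and lowest in replicate 2. All tested genes had shares of 56.5% and 21.4%. Tyrobp (DAP12), the ITAM adaptor of many other myeloid receptors, had 283, 192 and 302 CPM (adjusted p = 4.63e-49, exact binomial test). Its level of 259 ± 58.7 CPM (SD, n = 3) lay close to that of Fcer1g. The B cell receptor adaptors Cd79b and Cd79a had 136, 141 and 121 CPM and 53.4, 63.0 and 53.1 CPM, so they did not have their lowest value in replicate 2. Of the other receptors listed as partners of the gamma chain, 6 of 6 tested genes differed and 4 were called and lowest in replicate 2. Cd300lf had 212, 124 and 156 CPM, the mycobacterial glycolipid receptor gene Clec4e (Mincle) 47.9, 32.2 and 38.7 CPM, and Clec4d 53.8, 44.7 and 40.8 CPM.

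Of 19 tested kinases, adaptors and enzymes of activating signalling, 14 differed and 9 were called and lowest in replicate 2. The shares over all tested genes were 56.5% and 21.4%. Rac2, a small GTPase of the phagocyte cytoskeleton, was the highest at 486, 320 and 469 CPM, and the adaptor gene Grb2 had 194, 152 and 158 CPM. The kinases that act first on the ITAM were lowest in replicate 3 instead. Lyn, which phosphorylates the motif, had 282, 251 and 212 CPM (adjusted p = 4.86e-16, exact binomial test), and Syk, which docks on it, had 162, 140 and 115 CPM (adjusted p = 1.04e-12). Both kinases were highest in replicate 1.

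Inhibitory signalling genes differed in 9 of 10 cases, and 5 were called and lowest in replicate 2. For this list and the next, the shares over all tested genes were 56.5% and 21.4%. Inpp5d, the phosphatase recruited by Fcgr2b, had 58.7, 49.6 and 57.3 CPM (adjusted p = 0.0392, exact binomial test), a 1.18-fold range. In each library it stood above Fcgr2b. The tyrosine phosphatase gene Ptpn6 had 223, 205 and 229 CPM, the adaptor gene Dok3 191, 131 and 172 CPM, and the ubiquitin ligase gene Cbl 120, 114 and 105 CPM. Of 8 other receptors with inhibitory motifs, 7 differed and 5 were called and lowest in replicate 2, with Clec12a at 125 ± 9.74 and Lilrb4a at 114 ± 24.0 CPM (SD, n = 3) and the third, Sirpa, at 137, 104 and 101 CPM. Each of these 3 stood above the level of Fcgr2b in the 3 libraries.

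Other antibody-binding genes were mostly low, and 1 of 5 tested members differed, against 56.5% of all tested genes. Fcrla, a B cell gene of the Fc receptor family, had 68.2, 74.5 and 37.5 CPM (adjusted p = 4.54e-26, exact binomial test), with replicate 3 low. The IgM receptor gene Fcmr had 33.6, 33.4 and 33.7 CPM on library totals and did not pass the test. Nor did the B cell gene Fcrl1 (adjusted p = 0.427, exact binomial test), with 8.32 CPM in its lowest library and 10.7 in its highest. The remaining 6 members had fewer than 30 reads in all, and Fcgbp had none.

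**Figure D4:**
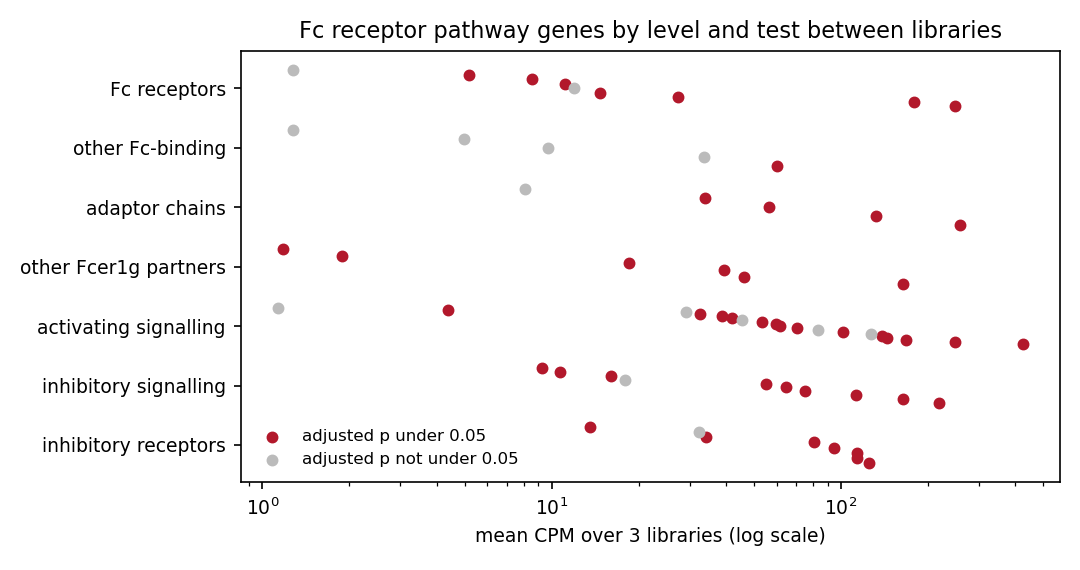
Mean CPM over 3 vehicle libraries on a log axis for the tested Fc receptor and pathway genes other than B2m, with 1 point per gene, spread vertically within a list for legibility. Red points differed between libraries past counting noise, grey points did not pass, and in the other Fc-binding list 1 of 5 points is red.

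The genes most like 3 of the receptors were found by the Euclidean distance between log2(CPM + 1) values centred on their own mean, among 2767 genes of at least 50 CPM. For Fcer1g these were the neutrophil alarmin gene S100a8 (distance 0.009), Tyrobp (0.023) and Spi1 (0.029), which encodes PU.1 and had 233, 162 and 252 CPM. For Fcgr3 they included Rps25 and Fam129a, and for Fcgr2b they were Armc1, Ctsc and Pgd. The likeness rests on 3 libraries and is a description only.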

How the data were processed

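Bone marrow RNA of 3 vehicle libraries was read from 500 ng of total RNA with a Lexogen QuantSeq kit, per the labels' protocols. Per the submitters' processing notes, the tools included Bowtie2 and bedtools and the build was mm10. How genes were annotated, whether strand was used and how values were normalized is not given in the sources used here. The authors deposited log2 values, 1 per gene and library, and their low values show the form log2(x + 1), x being reads per 1000000 of a scaled library size. Undoing the logarithm gave whole reads for 100% of values, to a relative tolerance of 1e-06. Those scaled sizes exceed the reads 1.12, 1.03 and 1.01 times in replicates 1, 2 and 3. CPM is recovered reads per 1000000 recovered reads.

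Genes with at least 30 reads (11833) were tested by comparing 1 library at a time with the remaining 2, by a two-sided exact binomial test. The lowest p of the 3 was taken times 3 and adjusted by Benjamini-Hochberg, with a threshold of 0.05. Gene pairs were compared with Fisher's exact test in the same way over 6 pairs. Python 3.11.15, numpy 2.4.6 and scipy 1.17.1 were used. Positions come from GENCODE release M21.

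The members and lists were chosen with earlier results of these data known. Named genes were the 9 members, the 3 most abundant genes of each list, and Syk, Lyn, Inpp5d, Ptpn6, Tyrobp and B2m. For Fcer1g, Fcgr3 and Fcgr2b the 3 genes of nearest profile with at least 50 CPM were added, of which 1 is not reported here. Of the markers only some are printed. Tpsb2, Cma1, Fcgbp, Ccr3, Il5ra, Siglecf, Kit, Gata2, Cpa3, Cr2 and Csf3r were named after their values were seen, and the promoter motifs were chosen after the data were seen. Listed dendritic cell and endothelial markers summed to 68.4 ± 6.75 and 38.7 ± 0.324 CPM (SD, n = 3). Cd300c2 and Ighd of the lists were not analysed here. Alternatives changed the library scaling, the minimum of reads, the test (chi-square), the pseudocount (0.5 and 5) or left out 1 library.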

Additional observations from a re-analysis of the deposited data

How the results depend on the processing

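No paired analysis was possible because the 3 libraries form 1 group. The number of members called was 6 with each of 4 other scalings and with a minimum of 1 read, 7 with a minimum of 10 or 100 reads and with a chi-square test, and from 3 (without replicate 2) to 7 when 1 library was left out. Of the 54 tested pathway genes 42 were called, 34 with TMM, 32 with the authors' and 33 with either of the other scalings, and 26 to 31 when 1 library was left out, alternatives added after the data were seen. The log2 ratio of summed activating receptors to Fcgr2b moved from 4.27 to 1.55 without Fcgr3, to 1.38 with the mean of log2 values and to 3.75 with a pseudocount of 5, and stayed at 4.20 to 4.37 when 1 library was left out. The log2 ratio of Fcer1g to its partners moved from 0.20 to 2.87 without Fcgr3, and was 0.07 to 0.31 when 1 library was left out. The log2 ratio of Fcgr4 to Fcgr2b was 1.15 to 1.45 when 1 library was left out and differed between libraries only without replicate 2 (1.31, adjusted p = 0.0326, Fisher's exact test), while the other 23 values of the 6 pairs kept their side of the threshold. Of 69 tests of a single member under an alternative, 10 lost the call, 5 of them for Fcgr2b. At these depths Fcer1a, with 33 reads in all, could not be compared between libraries with any precision.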
